A study of Arabidopsis thaliana with 9 samples.

Results

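The RAV1 over-expression line and the bes1-D mutant of Arabidopsis thaliana were compared with each other, 3 RNA sequencing libraries against 3, so that 6 of the 9 libraries of the series enter the contrast. The other 3 libraries are En2 wild type, and they serve here only to show which of both lines had left the wild-type level. All 3 genotypes share the En2 background, and each library came from seedlings of 7 days on MS plates under 16 h of light and 8 h of darkness, with no treatment. The bes1-D allele is a gain-of-function form of BES1 that is known for a stabilised protein, whereas the RAV1 line carries extra RAV1 expression for which the sources used here give neither the promoter nor the number of independent lines. Values are FPKM (read pairs relative to transcript length and library size), and 19740 of 25199 loci had at least 1 FPKM in at least 3 libraries and were tested. A locus is called higher or lower when its log2(FPKM + 1) differs between the lines with an adjusted p under 0.05 in limma, a linear model fitted over all 9 libraries with Benjamini-Hochberg adjustment over all loci tested. Nothing in the labels says whether the 3 libraries of a group came from separate sowings, so p-values measure the spread between these samples.

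Brassinosteroids are steroid hormones of plants that promote cell expansion. Their signal lets BES1 and its relative BZR1 accumulate in the nucleus, where they bind E-boxes and brassinosteroid response elements, switch on growth genes and hold down the genes of brassinosteroid synthesis. RAV1 belongs to a plant family with an AP2 and a B3 DNA-binding domain, and it is known for slowing growth and for effects on germination and leaf ageing.

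The promoters of both genes are shown because the series is about mutual inhibition between these 2 genes. Each window runs from 250 bases before to 50 bases after the annotated gene start in TAIR10.1, the RefSeq copy of the genome whose locus identifiers match the authors' TAIR10 table. Capitals mark every match, on either strand, to CAACA, the AP2 element of RAV1, to CANNTG, the E-box, and to CGTGTG or CGTGCG, the brassinosteroid response element. CACCTG, the B3 element of RAV1, is itself a form of CANNTG.
RAV1 (AT1G13260), chr1:4541918-4542217, plus strand: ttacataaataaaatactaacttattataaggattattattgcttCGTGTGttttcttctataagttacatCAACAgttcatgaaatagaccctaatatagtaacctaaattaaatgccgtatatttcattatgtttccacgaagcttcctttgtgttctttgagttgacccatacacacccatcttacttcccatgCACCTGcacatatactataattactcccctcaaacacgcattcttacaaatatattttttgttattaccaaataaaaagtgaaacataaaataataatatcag
BES1 (AT1G19350), chr1:6688213-6688512, plus strand: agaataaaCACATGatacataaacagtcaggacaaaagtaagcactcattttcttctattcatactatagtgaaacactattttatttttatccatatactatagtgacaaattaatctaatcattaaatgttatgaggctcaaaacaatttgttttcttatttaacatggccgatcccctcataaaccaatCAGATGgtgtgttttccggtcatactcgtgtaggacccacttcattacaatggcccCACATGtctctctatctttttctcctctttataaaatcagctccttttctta
The RAV1 window held 1 CGTGTG, 205 bases before the start, 1 CAACA at 179 bases and 1 CACCTG at 53 bases. The BES1 window held 3 E-boxes, at 242, 58 and 2 bases before the start, and no match to the other motifs. Of the 19504 tested loci with such a window, 53% had CAACA, 3.18% CACCTG, 62.6% CANNTG and 8.65% CGTGTG or CGTGCG. A match describes the letters of the window and not a bound site.

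In replicates 1 to 3 of the over-expression line RAV1 measured 1064, 756 and 1426 FPKM, whereas the bes1-D replicates 1 to 3 held 53.9, 58.3 and 33.2 FPKM. The lines lay far apart, and replicate 2 was the lowest and replicate 3 the highest of the over-expression libraries. With a mean 22.3-fold that of bes1-D, RAV1 was called higher (log2 difference 4.45, SE 0.26, adjusted p = 1.32e-05), beside a wild-type mean of 84.1 FPKM. In the same limma fit RAV1 differed from wild type by 3.6 in RAV1 over-expression (adjusted p = 0.000116). In bes1-D its difference from wild type was -0.81 and was not called (adjusted p = 0.0929). Reads of an introduced copy and of the native gene are not told apart in FPKM.

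BES1, the transcription factor altered in bes1-D, measured 60.7, 73.5 and 52.4 FPKM in RAV1 over-expression and 136, 142 and 182 FPKM in bes1-D. Every RAV1 over-expression library lay below every bes1-D library, and the wild-type mean of 108 FPKM lay between the lines. The mean in bes1-D was 2.47-fold that in RAV1 over-expression, and BES1 was called lower in the latter (log2 difference -1.29, SE 0.15, adjusted p = 0.000238). Against wild type BES1 was lower in RAV1 over-expression (-0.79, limma adjusted p = 0.00508). In bes1-D it stood at 0.50 and was not called against wild type (adjusted p = 0.0692). The mutation is known to act on the protein, so the transcript does not check the label. Exact two-sided permutation of 3 against 3 libraries gave p = 0.1 for RAV1 and for BES1, the smallest p that this design allows.

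Both families held members that differed between the lines. In this contrast higher and lower always refer to RAV1 over-expression set against bes1-D. Of all tested loci 28% were called higher and 10.6% lower, and the counts for gene groups are read against these shares. Regardless of the test, the 3 libraries of each line stood apart from one another in 38.2% of loci in the higher and 13% in the lower direction. In the RAV family 1 of 4 tested members was higher, RAV1 itself, and 2 were lower, TEM1 and TEM2 (RAV2), which are repressors of flowering. TEM1 measured 47.9, 85.01 and 32.3 FPKM in RAV1 over-expression and 133, 210.0 and 146 FPKM in bes1-D (log2 difference -1.63, SE 0.33, adjusted p = 0.00513). TEM2 measured 43.3, 63.4 and 23.8 and 117, 161 and 106 FPKM (log2 difference -1.62, SE 0.33, adjusted p = 0.00547). For both genes all bes1-D libraries lay above all RAV1 over-expression libraries, and the wild-type means of 205 and 168 FPKM were higher still.

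In the BES1/BZR1 family 3 of 6 tested members were called higher and 2 lower. BEH2, a close relative of BES1, measured 40.6, 43.2 and 40.3 FPKM in RAV1 over-expression and 14.03, 13.7 and 13.9 FPKM in bes1-D (log2 difference 1.51, SE 0.08, adjusted p = 4.23e-06). The libraries of a line differed by little, and the wild-type mean of 37.0 FPKM lay near RAV1 over-expression. BEH1 was lower, at 4.48, 6.03 and 4.26 FPKM against 8.82, 11.6 and 9.23 FPKM in bes1-D (log2 difference -0.88, SE 0.16, adjusted p = 0.00234), both below the wild-type mean of 14.4 FPKM. BZR1 (0.40, adjusted p = 0.0286) and BEH4 (0.33, adjusted p = 0.0215) were called higher with the values as deposited but not under trimmed-mean scaling between libraries (adjusted p = 0.196 and 0.252). BZR1 also lost its call without RAV1 over-expression replicates 1 or 3 or bes1-D replicates 2 or 3, and BEH4 without RAV1 over-expression replicate 2 or bes1-D replicate 2 (adjusted p up to 0.101 and 0.0673). With a replicate block BZR1 had adjusted p = 0.0501. The count of higher members was 1 without bes1-D replicate 2.

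**Figure D1:**
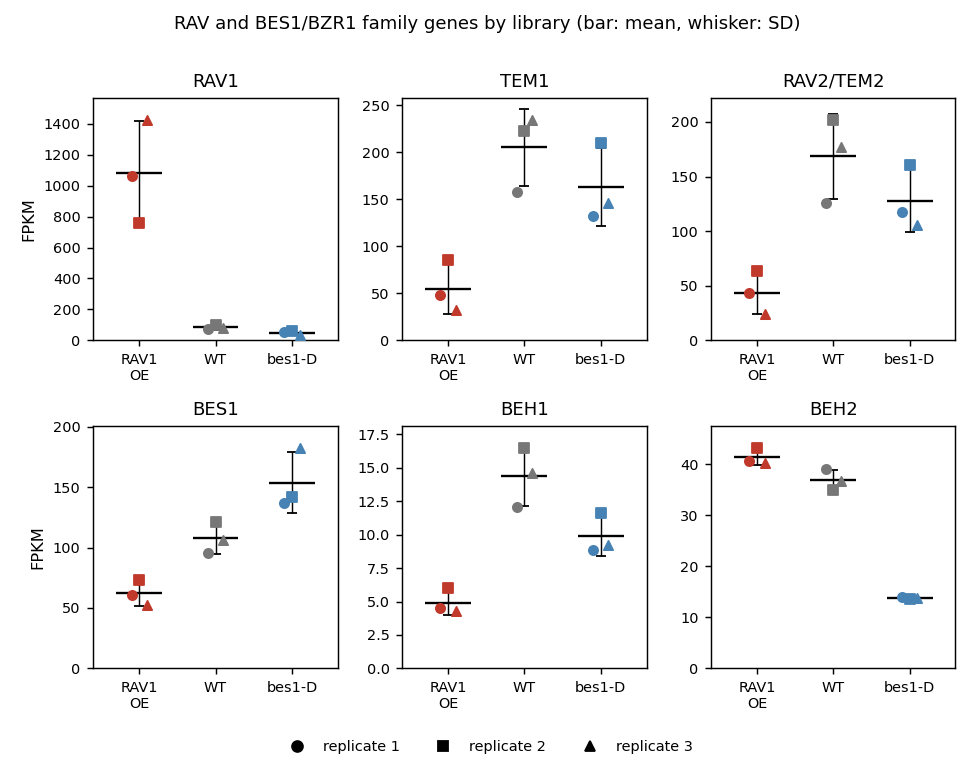
FPKM (y axis, from 0) of RAV and BES1/BZR1 family genes in RAV1 over-expression (RAV1 OE), wild type (WT) and bes1-D, with 1 point per library, a bar at the mean and whiskers of 1 SD (n = 3). RAV1 stood at 756 FPKM or more in every RAV1 over-expression library, BES1 was lowest there and BEH2 was near 14 FPKM in all 3 bes1-D libraries.

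Across all loci 5520 were called higher and 2084 lower, and 984 and 643 of them by at least 2-fold. The median log2 difference of all loci was 0.191. The 20 most abundant loci held 11.5% to 12.2% of all FPKM in bes1-D libraries and 6.19% to 7.64% in RAV1 over-expression. Trimmed-mean scaling of the libraries moved that median to 0.0323 and quantile normalization to 0.034. The counts were then 2551 higher and 3003 lower (12.9% and 15.2% of loci), and 2714 higher and 2953 lower (13.7% and 15%), so that the share of higher among called loci went from 72.6% to 45.9% and 47.9%. All 2551 loci called higher under trimmed-mean scaling were among the 5520, and all 2084 loci called lower were also lower under that scaling. Without RAV1 over-expression replicate 1 the count of higher loci was 3534. For the gene groups below, the count under trimmed-mean scaling is given wherever it differs.

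With the values as deposited, the wild-type mean lay between the lines for most called loci. The medians of all loci against wild type were 0.0928 for RAV1 over-expression and -0.0616 for bes1-D. This shift of all loci by itself favours a place between the lines for higher loci. The place of the wild type was not computed under other scalings, and the loci were selected by the difference between the lines. Of the 5520 loci that were higher in RAV1 over-expression, the wild-type mean lay between the lines and nearer bes1-D for 43.8% and between them but nearer RAV1 over-expression for 28.1%. It lay beyond bes1-D for 19% and beyond RAV1 over-expression for 9%. Of the 2084 lower loci the corresponding shares were 55.4%, 21.9%, 18% and 4.65%. Each line against the same 3 wild-type libraries gave 2960 higher and 1581 lower loci for RAV1 over-expression (15% and 8.01%) and 433 and 1139 for bes1-D (2.19% and 5.77%).

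**Figure D2:**
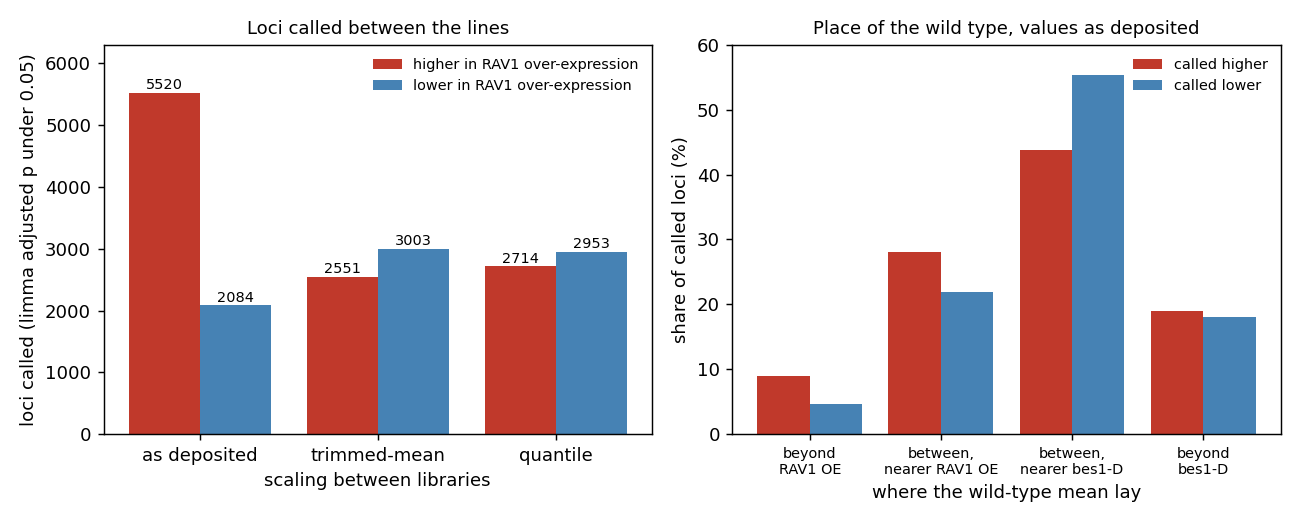
Left, number of loci called higher or lower in RAV1 over-expression against bes1-D (limma, adjusted p under 0.05) for values as deposited and after both scalings. Right, share of the called loci (%) by where the wild-type mean lay, with values as deposited. The split of 5520 to 2084 became 2551 to 3003 under trimmed-mean scaling, and the bin nearer bes1-D was the fullest in both directions.

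The RAV1 over-expression libraries differed among themselves, though not in the same order for all genes. JAZ1, JAZ10 and PYE, described below, were highest in replicate 1 and lowest in replicate 3. A relation of any such order to the RAV1 level was not tested. On the main axis of the 6 libraries, with 69.8% of the variance, replicate 2 lay nearest to bes1-D and replicate 3 farthest, the order of their RAV1 levels. Markers of seed maturation followed that order: 14 such genes summed to 462, 139 and 1703 FPKM in replicates 1 to 3, against 22.5 to 36 FPKM in bes1-D and 18.17 to 36 FPKM in wild type. No seed marker was at 0 in replicates 1 and 3 and 2 were in replicate 2, while 5 or 6 were at 0 in every bes1-D library. The 12 root markers, none at 0 in any library, summed to 116 to 125 FPKM in RAV1 over-expression, 105 to 116 FPKM in wild type and 61.4 to 77.3 FPKM in bes1-D. In bulk seedling RNA, fewer cells of a type and less RNA per cell cannot be told apart, and the part of tissue makeup in the differences below was not tested.

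The genes of brassinosteroid synthesis separated the lines, and the line that had moved was bes1-D. Of 10 tested members 6 were higher in RAV1 over-expression and none lower, with a median log2 difference of 0.71 (all loci 0.191). Under trimmed-mean scaling 5 were higher. The list medians against wild type were -0.10 for the over-expression line and -0.92 for bes1-D, 2 comparisons that share the wild-type libraries.

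CYP90D1, a hydroxylase of the pathway, measured 10.5, 8.63 and 8.44 FPKM in RAV1 over-expression and 0.630, 0.960 and 1.15 FPKM in bes1-D (log2 difference 2.42, SE 0.16, adjusted p = 1.1e-05). BR6OX2, which makes brassinolide, the most active form, measured 14.1, 13.3 and 15.3 FPKM and 3.59, 3.2 and 3.43 FPKM (log2 difference 1.79, SE 0.10, adjusted p = 5.72e-06). In both genes the 3 bes1-D libraries lay together far below the others, and the wild-type means of 9.19 and 16.2 FPKM were close to RAV1 over-expression. CPD, a C-3 oxidase, measured 55.1, 62.9 and 51.2 FPKM against 22.7, 17.41 and 21.1 FPKM in bes1-D (log2 difference 1.43, SE 0.11, adjusted p = 3.18e-05). DWF4, the C-22 hydroxylase that limits the rate of the pathway, measured 10.5, 8.12 and 9.77 FPKM against 2.35, 3.04 and 2.17 FPKM (log2 difference 1.57, SE 0.14, adjusted p = 5.54e-05). No library of one line overlapped the other, and against wild type DWF4 stood at -0.06 in RAV1 over-expression (adjusted p = 0.79) and -1.63 in bes1-D (adjusted p = 0.000225). ROT3, chosen for mention after its values were seen, was also higher (log2 difference 0.97, SE 0.11, adjusted p = 0.000244). STE1, a sterol desaturase upstream, was called with the values as deposited (0.45, adjusted p = 0.0159) and lost that call under trimmed-mean scaling (adjusted p = 0.116) or without RAV1 over-expression replicate 1 or bes1-D replicate 2 (up to 0.0599). None of the 4 tested genes that inactivate brassinosteroids was called in either direction (limma, median -0.11).

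The windows of these 4 genes are shown since BES1 and BZR1 are known to bind the promoters of several of them, with the same motifs in capitals.
CYP90D1 (AT3G13730), chr3:4500871-4501170, minus strand: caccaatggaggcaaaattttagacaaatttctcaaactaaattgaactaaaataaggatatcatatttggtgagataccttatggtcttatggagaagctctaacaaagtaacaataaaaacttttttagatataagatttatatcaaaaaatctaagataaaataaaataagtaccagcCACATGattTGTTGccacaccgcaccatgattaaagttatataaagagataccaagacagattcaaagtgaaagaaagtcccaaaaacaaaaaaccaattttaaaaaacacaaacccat
BR6OX2 (AT3G30180), chr3:11810476-11810775, plus strand: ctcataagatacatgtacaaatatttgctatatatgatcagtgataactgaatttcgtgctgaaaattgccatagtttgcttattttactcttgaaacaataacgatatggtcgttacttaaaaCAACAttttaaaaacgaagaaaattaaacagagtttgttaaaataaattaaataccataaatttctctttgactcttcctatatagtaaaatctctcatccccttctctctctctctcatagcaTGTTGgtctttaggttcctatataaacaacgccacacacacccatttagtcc
CPD (AT5G05690), chr5:1706899-1707198, minus strand: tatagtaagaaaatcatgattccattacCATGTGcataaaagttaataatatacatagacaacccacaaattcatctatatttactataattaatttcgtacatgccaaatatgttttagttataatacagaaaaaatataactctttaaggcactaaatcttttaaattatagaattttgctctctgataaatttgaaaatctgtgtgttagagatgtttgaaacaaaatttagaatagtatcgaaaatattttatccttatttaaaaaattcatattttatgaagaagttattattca
DWF4 (AT3G50660), chr3:18817356-18817655, minus strand: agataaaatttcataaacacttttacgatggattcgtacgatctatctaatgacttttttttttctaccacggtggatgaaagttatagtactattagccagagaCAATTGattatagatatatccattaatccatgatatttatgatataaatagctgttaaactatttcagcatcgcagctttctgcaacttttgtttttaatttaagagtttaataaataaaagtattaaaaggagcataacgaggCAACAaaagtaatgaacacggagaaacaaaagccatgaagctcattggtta
CPD, DWF4 and CYP90D1 had 1 E-box each and BR6OX2 had none. CAACA occurred in DWF4 and CYP90D1 (1 each) and BR6OX2 (2), read as TGTTG where it lies on the other strand. No window of the 4 held CGTGTG or CGTGCG, which says only that these letters are not in these 300 bases.

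Among 9 tested genes of brassinosteroid signalling 4 were higher and 1 lower, and 3 and 2 under trimmed-mean scaling. BRL3, a receptor of the BRI1 family, measured 23.6, 18.1 and 26.9 FPKM in RAV1 over-expression and 9.70, 7.73 and 6.93 FPKM in bes1-D (log2 difference 1.38, SE 0.16, adjusted p = 0.000209). BAK1, the co-receptor, measured 44.5, 42.6 and 45.9 FPKM against 27.9, 28.2 and 25.2 FPKM (log2 difference 0.69, SE 0.08, adjusted p = 0.000277), and the receptor BRI1 was higher by 0.43 (adjusted p = 0.00424) but lost its call under trimmed-mean scaling (adjusted p = 0.0538). BKI1, which inhibits BRI1, was lower (log2 difference -0.76, SE 0.12, adjusted p = 0.00127), with 7.92, 6.22 and 7.82 FPKM in RAV1 over-expression and 14.2, 11.8 and 12.97 FPKM in bes1-D. In BRL3, BAK1 and BKI1 the groups did not overlap and the wild-type mean lay between the lines. BSK1, a kinase below the receptor, was the fourth higher member (0.56, adjusted p = 0.0078).

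Cell wall genes that act in expansion were mostly lower in RAV1 over-expression. Of 19 tested expansins and xyloglucan enzymes 13 were lower and 3 higher, with a median log2 difference of -0.60, and 14 and 3 under trimmed-mean scaling. XTH4, a xyloglucan endotransglucosylase, measured 267, 314 and 212 FPKM in RAV1 over-expression and 576, 485 and 669 FPKM in bes1-D (log2 difference -1.13, SE 0.16, adjusted p = 0.000686). XTH33 measured 5.72, 5.21 and 5.48 FPKM against 18, 10.4 and 15.9 FPKM (log2 difference -1.24, SE 0.18, adjusted p = 0.000704). The lines did not overlap in either gene, but the wild type stood on different sides, nearer RAV1 over-expression for XTH4 (363 FPKM) and above both line means for XTH33 (17.2 FPKM). EXPA8, an expansin chosen for mention after its values were seen, differed most within the list, at 1.76, 6.62 and 0.710 FPKM in RAV1 over-expression and 20.8, 12.8 and 23.8 FPKM in bes1-D (log2 difference -2.57, SE 0.47, adjusted p = 0.00369). The higher members were XTH15 (62.1, 55.7 and 65.0 FPKM against 24.1, 16.4 and 23.5 FPKM; log2 difference 1.49, SE 0.14, adjusted p = 9.21e-05), XTH5 (log2 difference 1.38, SE 0.18, adjusted p = 0.00045) and EXPA10 (1.05, adjusted p = 0.00154), so the list did not move in 1 direction.

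Small auxin up RNA genes, whose products promote acid growth, were lower in RAV1 over-expression and were the lower members of the auxin list. Of its 19 tested members 6 were lower, all of them SAUR genes, and 3 were higher. SAUR22 measured 0.40, 1.72 and 0.430 FPKM in RAV1 over-expression and 7.99, 7.86 and 11.7 FPKM in bes1-D (log2 difference -2.51, SE 0.40, adjusted p = 0.00145). SAUR15 measured 2.82, 4.1 and 2.99 FPKM against 14.6, 11.9 and 13.2 FPKM (log2 difference -1.74, SE 0.29, adjusted p = 0.00191). Both were low in all RAV1 over-expression and wild-type libraries and higher in each bes1-D library, and against wild type SAUR22 stood at 1.98 in bes1-D (adjusted p = 0.0178). SAUR19 to SAUR24 are near-identical neighbours, so the share of each in the reads is uncertain, and the count of 6 was 3 without RAV1 over-expression replicate 1 or bes1-D replicate 3. GH3.5 and GH3.3, which conjugate and so remove free auxin, were higher, with 22.4, 21.2 and 27.8 FPKM against 12.4, 12.3 and 11.8 FPKM for GH3.5 (log2 difference 0.91, SE 0.11, adjusted p = 0.000302). GH3.3 measured 28.6, 19.3 and 44.3 FPKM against 7.72, 10.5 and 7.13 FPKM (log2 difference 1.69, SE 0.28, adjusted p = 0.00172), and IAA2, an early auxin response gene, was the third higher member (1.27, adjusted p = 0.00833). The higher count was 5 without RAV1 over-expression replicate 3.

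Other regulators of growth differed gene by gene. Among 9 genes of phytochromes, PIFs and shade response 3 were lower and 3 higher. PIF4, a basic helix-loop-helix factor that promotes elongation and acts with BZR1, measured 11.7, 17.2 and 7.94 FPKM in RAV1 over-expression and 46.9, 35.8 and 36.9 FPKM in bes1-D (log2 difference -1.67, SE 0.22, adjusted p = 0.00051). PIF1 measured 23.4, 26.8 and 25.2 FPKM against 52.99, 50.9 and 57.7 FPKM (log2 difference -1.07, SE 0.09, adjusted p = 4.63e-05). The groups were apart in both, yet for PIF4 the wild type was near bes1-D (33.7 FPKM) and for PIF1 near RAV1 over-expression (29.7 FPKM). PIF5 was lower (-0.62, adjusted p = 0.00186), and HY5, which opposes PIFs in light, was higher (log2 difference 0.96, SE 0.13, adjusted p = 0.00064), at 29.4, 28.4 and 26.9 FPKM against 12.8, 16.6 and 12.98 FPKM. PIF3 and PHYA, the other higher members, differed by 0.75 and 0.68 (adjusted p = 0.0022 and 0.00206).

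Of 10 tested PRE and related helix-loop-helix genes 2 were higher and 0 lower, beside 28% and 10.6% of all loci. Under trimmed-mean scaling 2 were higher and 1 lower, and under quantile normalization 2 and 3. The lower count reached 3 with 1 library left out. The list median of 0.115 lay below that of all loci, 0.191. IBH1 and PAR1, the 2 higher members, are known brakes on elongation. IBH1, which PRE proteins neutralise, measured 7.59, 7.92 and 8.11 FPKM in RAV1 over-expression and 2.35, 4.99 and 3.87 FPKM in bes1-D (log2 difference 0.95, SE 0.19, adjusted p = 0.00376). PAR1 measured 16.6, 20.3 and 15.3 FPKM against 9.78, 7.45 and 11 FPKM (log2 difference 0.83, SE 0.16, adjusted p = 0.00352). The lines did not overlap for either gene. PRE1, a target of BZR1, was not called (log2 difference -0.68, adjusted p = 0.0748).

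The gibberellin list had 5 higher of 12 tested members with the values as deposited and 3 under trimmed-mean scaling. GA2OX2, which inactivates gibberellin, measured 20.4, 12.3 and 24.2 FPKM in RAV1 over-expression and 8.18, 8.59 and 7.89 FPKM in bes1-D (log2 difference 1.06, SE 0.21, adjusted p = 0.0033), and both lines lay above every wild-type library. RGL3, a DELLA repressor, and GID1B, a gibberellin receptor, were higher by 1.03 and 0.83 (adjusted p = 0.00135 and 0.00285). GID1A, another receptor, and GA2OX6 lost their calls under trimmed-mean scaling (adjusted p = 0.127 and 0.107). GID1A also lost it without RAV1 over-expression replicate 3 or bes1-D replicate 1 (adjusted p up to 0.0798), and GA2OX6 without RAV1 over-expression replicates 1 or 2 or bes1-D replicate 1 (up to 0.0971).

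Type-A response regulators, which are induced by cytokinin and feed back on it, were higher in 5 of 9 tested cases and lower in none (4 under trimmed-mean scaling, where ARR8 lost its call with adjusted p = 0.104). ARR8 was also lost without RAV1 over-expression replicates 1 or 2 or bes1-D replicates 1 or 2 (adjusted p up to 0.0779). ARR3 measured 12.4, 11.8 and 9.99 FPKM in RAV1 over-expression and 3.33, 1.87 and 2.25 FPKM in bes1-D (log2 difference 1.85, SE 0.20, adjusted p = 0.000139). ARR7 measured 29.4, 30.6 and 23.5 FPKM against 12.4, 14.3 and 13.4 FPKM (log2 difference 1.0, SE 0.11, adjusted p = 0.00018). In both, the bes1-D libraries were the low ones, with wild-type means of 6.66 and 26.2 FPKM. Against wild type, RAV1 over-expression was also higher for ARR3 (0.71, adjusted p = 0.0259) but not called for ARR7 (0.08, adjusted p = 0.648). ARR6 and ARR9 were higher by 0.92 and 0.62 (adjusted p = 0.00156 and 0.00096).

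Cell division genes were called lower in 5 of 9 cases and higher in 2, but the lower count was 2 without bes1-D replicate 2 and 3 without bes1-D replicates 1 or 3 or RAV1 over-expression replicate 1. KNOLLE, a syntaxin of the forming cell plate, measured 18.5, 26.8 and 14.3 FPKM in RAV1 over-expression and 35.9, 34.02 and 41.1 FPKM in bes1-D (log2 difference -0.90, SE 0.19, adjusted p = 0.00519). The D-type cyclins went both ways, with CYCD3;1 lower (log2 difference -0.53, SE 0.12, adjusted p = 0.00711) and CYCD3;3 higher (log2 difference 0.64, SE 0.14, adjusted p = 0.00543). The other higher member, CYCD3;2, lost its call under trimmed-mean scaling, which left 1 higher and 6 lower, and the higher count was also 1 without RAV1 over-expression replicate 3. Of 8 cellulose synthases CESA5 and CESA2 were lower (-0.52 and -0.42, adjusted p = 0.00728 and 0.0117), joined by CESA7 under trimmed-mean scaling.

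Genes of cuticular wax were lower in 4 of 6 tested cases, with a median of -0.85. KCS6, a condensing enzyme for very long fatty acids, measured 166, 161 and 182 FPKM in RAV1 over-expression and 293, 309.7 and 292 FPKM in bes1-D (log2 difference -0.81, SE 0.08, adjusted p = 0.000102). MAH1, a mid-chain alkane hydroxylase, was at 0.450, 0.050 and 0.350 FPKM against 3.80, 2.46 and 4.45 FPKM (log2 difference -1.82, SE 0.21, adjusted p = 0.000244). Wild type stood between the lines for KCS6 (215 FPKM) and was as low as RAV1 over-expression for MAH1 (0.190 FPKM). MAH1 reached the level needed for testing only through bes1-D and so had to differ. Its test and its place in the count support nothing by themselves. CER3 and KCS1 were lower by -0.89 and -1.35 (adjusted p = 0.000812 and 0.00203).

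**Figure D3:**
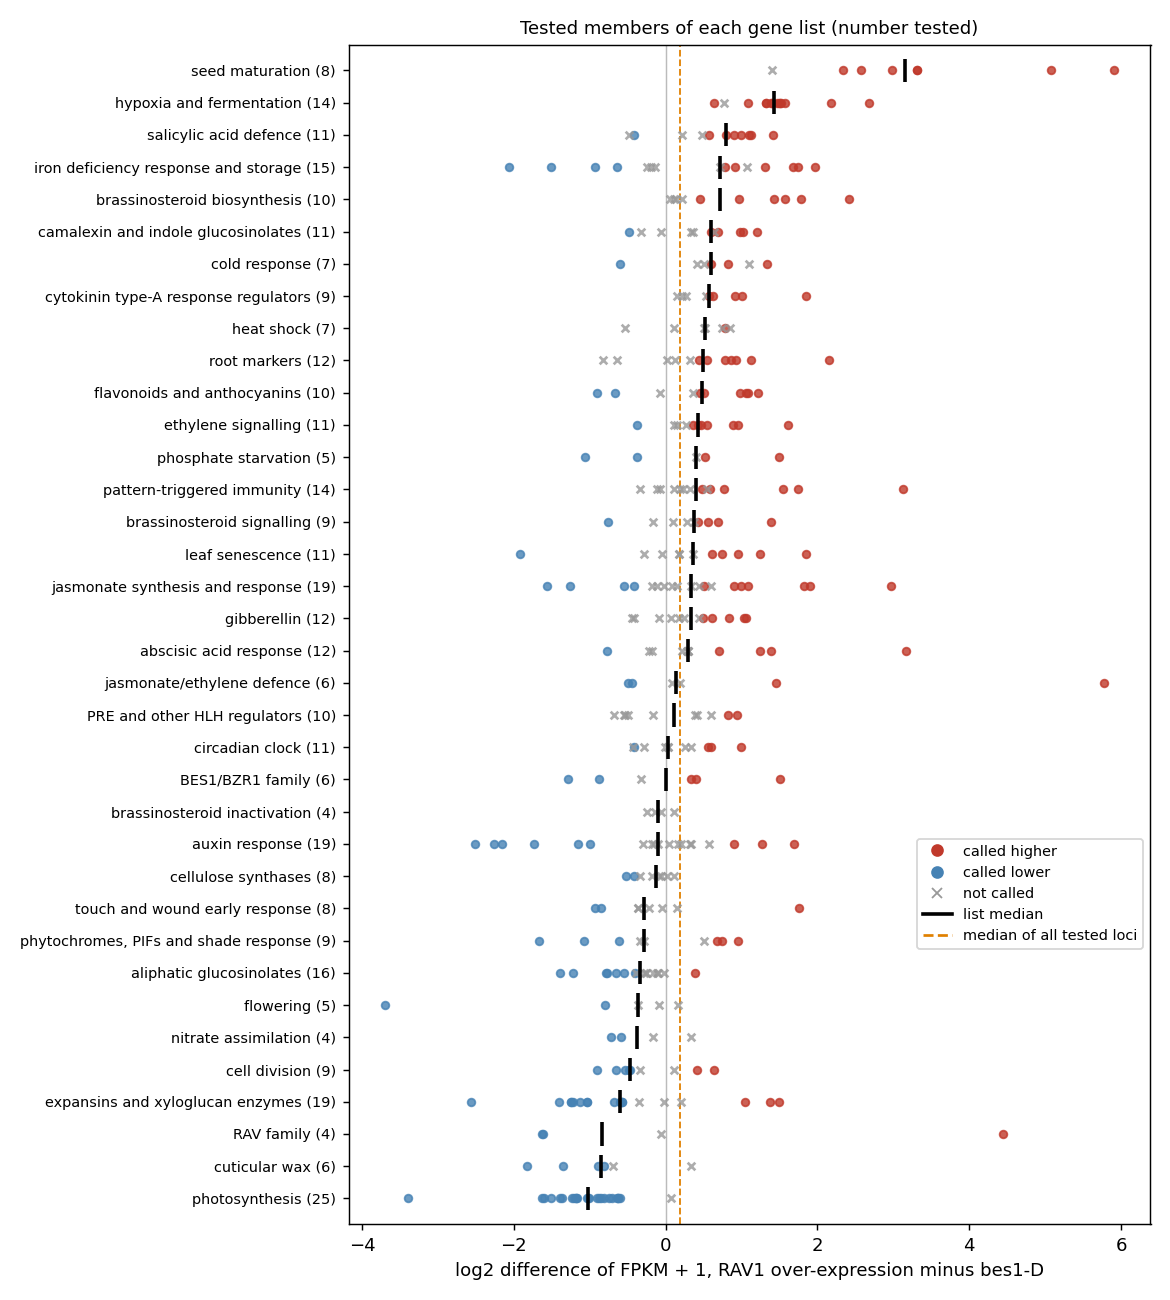
Log2 difference (RAV1 over-expression minus bes1-D, FPKM + 1, x axis) of every tested member of each gene list (y axis, number tested in brackets), with the list median as a black bar and the median of all loci, 0.191, as a dashed line. Photosynthesis (-1.02) stood at the bottom, hypoxia and fermentation (1.43) and seed maturation (3.15) at the top. The seed maturation median includes members tested only through RAV1 over-expression, which had to differ, so its rank supports nothing by itself.

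Photosynthesis transcripts were lower in RAV1 over-expression in 24 of 25 tested cases and higher in none, with a median log2 difference of -1.02. The 25 genes together took 5.52%, 6.77% and 4.5% of the FPKM sum in the over-expression libraries 1 to 3, against 11.4%, 10.5% and 10.4% for bes1-D, beside 9.25% to 9.84% in wild type. Trimmed-mean scaling also gave 24 lower, and quantile normalization gave 12. The member not called was GLK2 (0.07, adjusted p = 0.681).

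LHCB1.4, an antenna protein of photosystem II, differed most, at 189, 281 and 94.1 FPKM in RAV1 over-expression and 2127, 1685 and 1638 FPKM in bes1-D (log2 difference -3.39, SE 0.34, adjusted p = 0.000178). Here the wild-type mean of 792 FPKM stood between the lines and apart from each, although its difference from bes1-D did not pass the test (adjusted p = 0.0623). PSAG, a subunit of photosystem I, measured 1232, 1535 and 1062 FPKM against 3221, 2693 and 2979 FPKM (log2 difference -1.23, SE 0.14, adjusted p = 0.000186). LHCB4.1, a minor antenna protein, measured 966, 1201 and 807 FPKM against 2366, 2193 and 2097 FPKM (log2 difference -1.18, SE 0.13, adjusted p = 0.000208). In PSAG and LHCB4.1 the libraries of RAV1 over-expression were below all others, with the lowest value in replicate 3. PSAF, also of photosystem I, was lower (log2 difference -1.0, SE 0.11, adjusted p = 0.000169) but not under quantile normalization (adjusted p = 0.251). LHCB1 and RBCS genes have near-identical copies, so the split of reads between copies is uncertain.

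HEMA1, which starts chlorophyll synthesis, was among the 6 lower loci with the smallest p of the whole comparison. It measured 48.6, 48.0 and 40.1 FPKM in RAV1 over-expression, 164, 139 and 157 FPKM in bes1-D and 72.4, 75.4 and 73.03 FPKM in wild type (log2 difference -1.73, SE 0.10, adjusted p = 5.81e-06). Each group stood apart from the others, with a log2 difference from wild type of -0.69 in RAV1 over-expression (adjusted p = 0.0014) and 1.04 in bes1-D (adjusted p = 0.000435). ELIP2, an early light-induced protein that binds free chlorophyll, went the other way, at 207, 121 and 287 FPKM against 11.1, 11.03 and 7.01 FPKM in bes1-D (log2 difference 4.21, SE 0.29, adjusted p = 3.11e-05). Of 4 nitrate assimilation genes NIR1, the nitrite reductase, and NIA2, a nitrate reductase, were lower (-0.71 and -0.59, adjusted p = 0.000793 and 0.00276).

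Iron genes separated the lines in a way that placed bes1-D apart from wild type. Of 15 tested members 6 were higher and 4 lower in RAV1 over-expression, and 3 higher and 4 lower under trimmed-mean scaling. FER1, a ferritin that stores iron in plastids, measured 53.7, 59.9 and 52.0 FPKM in RAV1 over-expression and 209, 263 and 229 FPKM in bes1-D (log2 difference -2.06, SE 0.10, adjusted p = 3.16e-06). FER4, another ferritin, measured 43.6, 40.8 and 48.4 FPKM against 67.5, 85.3 and 105 FPKM (log2 difference -0.92, SE 0.17, adjusted p = 0.00285), and FER3 was lower too (-0.64, adjusted p = 0.003). All 3 ferritins were highest in the bes1-D libraries, with no overlap, and FER1 stood 1.74 above wild type in bes1-D (adjusted p = 1.15e-05) and at -0.32 in RAV1 over-expression (adjusted p = 0.0445).

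Among the regulators of the iron deficiency response in this list, PYE and BHLH101 were low in bes1-D, whereas others were not called or lost their calls. Loci outside the list were not searched for such regulators. PYE, a basic helix-loop-helix factor induced by iron shortage, measured 40.2, 33.5 and 27.9 FPKM in RAV1 over-expression and 8.98, 8.75 and 10.2 FPKM in bes1-D (log2 difference 1.75, SE 0.15, adjusted p = 5.87e-05). BHLH101 measured 2.67, 3.25 and 1.76 FPKM against 0, 0.320 and 0 FPKM (log2 difference 1.68, SE 0.24, adjusted p = 0.00066), and the wild-type means of 24.9 and 2.95 FPKM were nearer RAV1 over-expression. OPT3, a transporter that signals shoot iron status, was higher as well (0.91, adjusted p = 0.00445). BHLH39, IMA1 and BTS were called as deposited but not under trimmed-mean scaling (adjusted p = 0.0654, 0.0754 and 0.0895). BHLH39 was also lost without any 1 library other than RAV1 over-expression replicate 3, IMA1 without wild type replicates 2 or 3, RAV1 over-expression replicates 1 or 2 or bes1-D replicates 1 or 2, and BTS without RAV1 over-expression replicates 1 or 2 or bes1-D replicate 3 (adjusted p up to 0.127, 0.112 and 0.0908). The higher count was 3 without RAV1 over-expression replicate 1 or replicate 2, which took part in all 3 losses. NAS4, a nicotianamine synthase, was the fourth lower member (-1.50, adjusted p = 0.00556), and here RAV1 over-expression was the line away from wild type. The uptake genes IRT1 and FRO2 and their regulator FIT were not called (-0.20, -0.13 and -0.24).

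**Figure D4:**
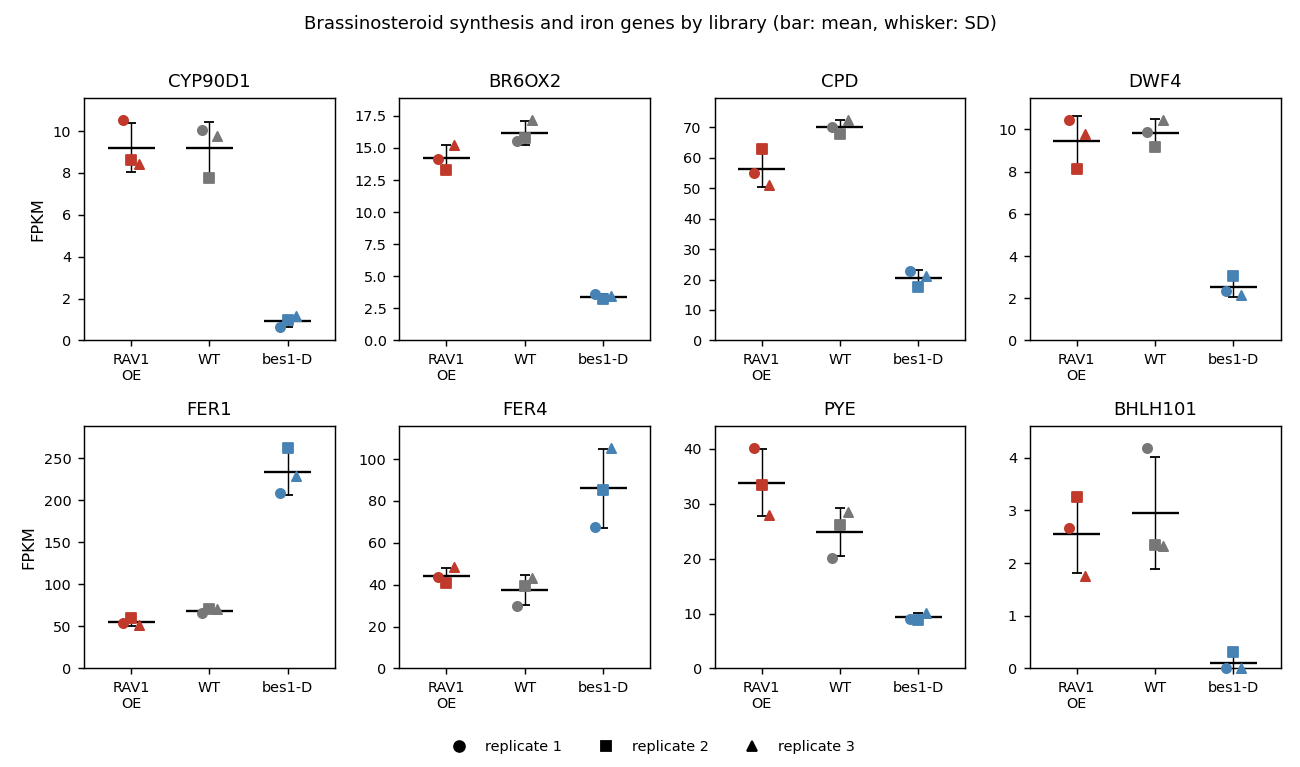
FPKM (y axis, from 0) of 4 brassinosteroid synthesis genes and 4 iron genes in RAV1 over-expression (RAV1 OE), wild type (WT) and bes1-D, with 1 point per library, a bar at the mean and whiskers of 1 SD (n = 3). In every panel the bes1-D libraries stood apart from the 3 RAV1 over-expression libraries, while the wild type lay nearer RAV1 over-expression.

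Root markers also differed between the lines. Of 12 tested root markers 7 were higher in RAV1 over-expression and none lower (6 under trimmed-mean scaling), with a median of 0.49. EXPA7, an expansin of root hairs, measured 23.1, 18.9 and 14.6 FPKM in RAV1 over-expression and 3.58, 3.75 and 2.92 FPKM in bes1-D (log2 difference 2.15, SE 0.17, adjusted p = 3.63e-05). PIN2, the auxin efflux carrier of root epidermis, measured 25.0, 27.8 and 23.5 FPKM against 16.1, 13.2 and 13.8 FPKM (log2 difference 0.78, SE 0.12, adjusted p = 0.000845). The lines did not overlap in either, and the list median against wild type was -0.03 for the over-expression line and -0.54 for bes1-D. EXPA18 and SHR were higher by 1.12 and 0.55 (adjusted p = 0.00158 and 0.00293). The part of root content in the differences of iron, cytokinin and other root-expressed genes was not tested.

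Hypoxia genes formed the most uniform of the stress groups. Of 14 tested members 13 were higher in RAV1 over-expression and none lower, with a median of 1.43, and 10 under trimmed-mean scaling. LDH, lactate dehydrogenase, measured 60.5, 58.6 and 62.9 FPKM in RAV1 over-expression and 17.2, 22.8 and 22.3 FPKM in bes1-D (log2 difference 1.51, SE 0.11, adjusted p = 2.59e-05). ADH1, alcohol dehydrogenase, measured 162, 151 and 159 FPKM against 11.99, 32.0 and 34.3 FPKM (log2 difference 2.67, SE 0.38, adjusted p = 0.00112). SUS1, a sucrose synthase, measured 89.2, 84.8 and 109 FPKM against 30.9, 50.9 and 32.0 FPKM (log2 difference 1.32, SE 0.18, adjusted p = 0.000529). In all 3 the RAV1 over-expression libraries were alike and above every other library, while the wild type (means 22.9, 19.2 and 24.9 FPKM) was near bes1-D. PCO1, a plant cysteine oxidase that senses oxygen, was higher (log2 difference 1.32, SE 0.19, adjusted p = 0.000729). The 3 members whose calls were lost under trimmed-mean scaling were SUS4, LBD41 and HRE1 (adjusted p = 0.0649, 0.105 and 0.0536). Each of them was also lost when RAV1 over-expression replicate 1 or 2 was left out, SUS4 also with bes1-D replicate 1 or 2, LBD41 with bes1-D replicate 1 or 3 and HRE1 with RAV1 over-expression replicate 3 or bes1-D replicate 2 (adjusted p up to 0.0959, 0.0833 and 0.0745). HRA1 was not called (0.77, adjusted p = 0.0916).

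Ethylene signalling genes were called higher in 7 of 11 cases and lower in 1 with the values as deposited, but only 3 were higher under trimmed-mean scaling and 4 without RAV1 over-expression replicates 1 or 2 or bes1-D replicate 3. The receptor ETR2, which represses the pathway until ethylene binds, measured 81.7, 82.1 and 90.2 FPKM in RAV1 over-expression and 21.4, 32.9 and 27.6 FPKM in bes1-D (log2 difference 1.62, SE 0.23, adjusted p = 0.000729). The kinase CTR1, which acts with the receptors, measured 57.6, 58.2 and 72.0 FPKM against 33.8, 38.1 and 28.3 FPKM (log2 difference 0.89, SE 0.14, adjusted p = 0.000977), and the receptor ERS1 was higher by 0.96 (adjusted p = 0.00215). RAV1 over-expression was above all other libraries for ETR2 and CTR1. EIL1, a transcription factor that carries the signal, was lower (log2 difference -0.37, SE 0.10, adjusted p = 0.0131).

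Salicylic acid defence genes were higher in 7 of 11 tested cases and lower in 1, as they were under trimmed-mean scaling, with a median of 0.80. SAG101 measured 32.2, 31.2 and 27.4 FPKM in RAV1 over-expression and 13.6, 14.3 and 16.1 FPKM in bes1-D (log2 difference 1.0, SE 0.13, adjusted p = 0.000522). PAD4 measured 17.5, 14.8 and 17.1 FPKM against 7.54, 9.77 and 7.78 FPKM (log2 difference 0.90, SE 0.13, adjusted p = 0.000747). Both encode partners of EDS1, the lines did not overlap, and the wild-type means of 16.2 and 10.6 FPKM were nearer bes1-D. EDS5, which exports the precursor of salicylic acid from plastids, and NPR1, a salicylic acid receptor, were higher by 0.80 and 0.57 (adjusted p = 0.00332 and 0.0085). ICS1, the synthase of the same route, was the lower member (-0.42, adjusted p = 0.031), a call that was lost without RAV1 over-expression replicates 2 or 3 or bes1-D replicate 1 (adjusted p up to 0.0956).

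In the jasmonate list 7 of 19 members were higher and 4 lower (6 and 4 under trimmed-mean scaling). LOX2, the plastid lipoxygenase that begins jasmonate synthesis, measured 866, 701 and 886 FPKM in RAV1 over-expression, 113, 126 and 75.7 FPKM in bes1-D and 267, 212 and 212 FPKM in wild type. The groups stood in 3 separate ranges, and the lines differed 7.78-fold (log2 difference 2.97, SE 0.18, adjusted p = 1.1e-05), with a log2 difference from wild type of 1.82 in RAV1 over-expression (adjusted p = 0.000322) and -1.15 in bes1-D (adjusted p = 0.00648). AOC3, an allene oxide cyclase, measured 57.8, 51.8 and 43.5 FPKM against 22.1, 22.6 and 25.7 FPKM (log2 difference 1.08, SE 0.11, adjusted p = 0.000111). The repressors JAZ1 and JAZ10 were higher (1.82 and 1.91, adjusted p = 0.00052 and 0.000678), whereas JAZ6 and the storage protein VSP1 were lower and are named after their values were seen (-1.56 and -1.26, adjusted p = 0.0119 and 0.0122). OPR1, an oxophytodienoate reductase outside the list, was among the largest lower differences, at 27.9, 46.0 and 22.9 FPKM against 281, 606 and 234 FPKM in bes1-D (log2 difference -3.43, SE 0.37, adjusted p = 0.000314).

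Among 6 tested genes of jasmonate and ethylene defence ERF1 and the defensin PDF1.1 were higher. PDF1.1 measured 102, 34.7 and 283 FPKM in RAV1 over-expression and 0, 1.75 and 1.33 FPKM in bes1-D (log2 difference 5.77, SE 0.85, adjusted p = 0.00196), and replicate 3 was again the highest and replicate 2 the lowest. ERF1, a transcription factor of that defence, measured 4.27, 3.79 and 1.62 FPKM against 0.250, 0.500 and 0.700 FPKM (log2 difference 1.46, SE 0.31, adjusted p = 0.00521). No bes1-D library reached 1 FPKM for ERF1, and the wild-type libraries alone (0.67, 2.1 and 1.95 FPKM) did not suffice for testing. ERF1 was thus tested only because of RAV1 over-expression, and its test and its place in the count support nothing by themselves. ORA59 and PR4 were called lower, but neither was without RAV1 over-expression replicate 1 or bes1-D replicate 3 (adjusted p up to 0.0796 and 0.132), and 1 of both was left without En2 wild type replicate 1, RAV1 over-expression replicates 2 or 3 or bes1-D replicate 2.

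Pattern-triggered immunity genes were higher in 6 of 14 cases with the values as deposited and in 3 under trimmed-mean scaling, where CERK1, a chitin receptor, was lower. FRK1, a receptor kinase induced by flagellin, measured 13.04, 9.18 and 20.2 FPKM in RAV1 over-expression and 0.590, 0.820 and 0.570 FPKM in bes1-D (log2 difference 3.13, SE 0.25, adjusted p = 3.56e-05), with no overlap. NHL10 measured 6.18, 8.54 and 4.68 FPKM against 1.91, 2.18 and 0.680 FPKM (log2 difference 1.55, SE 0.25, adjusted p = 0.00144). The receptor EFR was higher by 0.77 (adjusted p = 0.00459), and FLS2, the flagellin receptor, was called as deposited but not under trimmed-mean scaling (adjusted p = 0.00741 and 0.0569).

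Glucosinolates are sulfur-rich defence compounds of this plant family, and their branches by amino acid of origin were counted apart, with no test between them. Methionine-derived (aliphatic) genes were lower in RAV1 over-expression in 7 of 16 cases and higher in 1, and 9 were lower under trimmed-mean scaling. CYP79F1, an entry enzyme, measured 25.5, 25.9 and 20.3 FPKM in RAV1 over-expression and 75.6, 58.0 and 59.6 FPKM in bes1-D (log2 difference -1.39, SE 0.15, adjusted p = 0.000182). MYB28, the main activator of the pathway, measured 36.5, 37.96 and 32.3 FPKM against 58.5, 57.2 and 71.03 FPKM (log2 difference -0.79, SE 0.10, adjusted p = 0.000503). RAV1 over-expression was below every bes1-D and wild-type library for both genes. FMO-GSOX1 and SOT18, of the last steps, were lower by -1.22 and -0.65 on the log2 scale (adjusted p = 0.00114 and 0.00637). MAM3, of chain elongation, was the higher member (0.39, adjusted p = 0.0439), a call lost under trimmed-mean scaling (adjusted p = 0.291) and without any 1 library other than RAV1 over-expression replicate 3. CYP79F1 and its neighbour CYP79F2 are near-identical, so their reads may be split.

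Tryptophan-derived (indole) glucosinolate and camalexin genes were higher in 5 of 11 cases and lower in 1 (4 and 2 under trimmed-mean scaling). CYP83B1, an oxime-metabolising enzyme of the indole branch, measured 108, 92.8 and 107 FPKM in RAV1 over-expression and 47.7, 55.9 and 50.7 FPKM in bes1-D (log2 difference 0.98, SE 0.10, adjusted p = 0.000142). SOT16, a sulfotransferase of its last step, measured 120.2, 111 and 110.3 FPKM against 61.1, 70.7 and 79.9 FPKM (log2 difference 0.69, SE 0.11, adjusted p = 0.00101). Here the bes1-D libraries were the low ones and the wild-type means of 89.1 and 112 FPKM were near RAV1 over-expression. MYB51, an activator, and CYP79B3, which makes the oxime, were higher by 1.21 and 0.60 (adjusted p = 0.00624 and 0.00652). UGT74B1, a glucosyltransferase, was the lower member and lost its call without RAV1 over-expression replicates 1 or 3 or bes1-D replicate 1 (adjusted p up to 0.0661).

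Flavonoid genes were higher in 6 of 10 tested cases and lower in 2 (4 and 2 under trimmed-mean scaling), and bes1-D was the line below wild type, with a list median of -0.52 against 0.00 in RAV1 over-expression. CHS, chalcone synthase, measured 160.1, 156 and 163 FPKM in RAV1 over-expression and 100.5, 82.9 and 62.9 FPKM in bes1-D (log2 difference 0.98, SE 0.16, adjusted p = 0.00153). CHI, chalcone isomerase, measured 63.7, 60.2 and 66.9 FPKM against 24.04, 31.6 and 25.5 FPKM (log2 difference 1.21, SE 0.13, adjusted p = 0.000145). Their activator MYB12 and the flavonol synthase FLS1 were higher as well (1.06 and 1.09, adjusted p = 0.000803 and 0.00177). DFR and LDOX, which lead to anthocyanins, were lower (-0.90 and -0.67, adjusted p = 0.00647 and 0.0189), with 1 lower member left without RAV1 over-expression replicates 1 or 3 or bes1-D replicate 2.

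Seed maturation genes showed the greatest list median, 3.15, in 8 tested of 14 members, 7 of them called higher. The 6 others did not reach the level needed for testing. Members that did so only through RAV1 over-expression, PAP85 among them, had to differ. The count and the median therefore support nothing by themselves. CRC, a cruciferin storage protein, measured 196, 58.2 and 757 FPKM in RAV1 over-expression and 3.15, 1.0 and 3.93 FPKM in bes1-D (log2 difference 5.91, SE 0.87, adjusted p = 0.00214). PAP85, a vicilin-like storage protein, measured 34.3, 13.3 and 78.8 FPKM against 0, 0.050 and 0 FPKM (log2 difference 5.08, SE 0.49, adjusted p = 0.000135). EM6, a late embryogenesis protein, measured 17.5, 5.27 and 54.2 FPKM against 1.71, 1.59 and 3.29 FPKM (log2 difference 2.58, SE 0.65, adjusted p = 0.015). The over-expression libraries spread widely, with replicate 2 lowest and replicate 3 highest, and yet did not overlap bes1-D in any of these genes. Leaving out RAV1 over-expression replicate 1 left 2 called of 6 tested, and leaving out bes1-D replicate 2 left 4 of 8.

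Abscisic acid response genes were higher in 4 of 12 cases and lower in 1, near the 28% and 10.6% of all loci. The counts were the same under trimmed-mean scaling, beside 12.9% and 15.2% of all loci. RAB18, a dehydrin, measured 34.5, 10.8 and 79.8 FPKM in RAV1 over-expression and 2.54, 2.47 and 2.77 FPKM in bes1-D (log2 difference 3.2, SE 0.58, adjusted p = 0.00375), in the library order of the seed markers. ABI5, a transcription factor of seed and seedling arrest, measured 4.76, 2.69 and 7.13 FPKM against 0.680, 1.80 and 1.06 FPKM (log2 difference 1.39, SE 0.29, adjusted p = 0.0051). RD29A was higher too (log2 difference 1.24, SE 0.24, adjusted p = 0.00354), whereas RD22, another dehydration-responsive gene, was lower, at 94.9, 80.3 and 88.0 FPKM against 170.2, 148 and 133 FPKM (log2 difference -0.77, SE 0.11, adjusted p = 0.00063). HAI1, a phosphatase of the pathway, was the fourth higher member (0.71, adjusted p = 0.0152) and lost its call under quantile normalization (adjusted p = 0.0539) and without RAV1 over-expression replicates 1 or 3 (up to 0.0561).

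Cold response genes were called higher in 3 of 7 cases, but in 1 under trimmed-mean scaling or without RAV1 over-expression replicate 1 or 3. COR15A, a chloroplast protectant, measured 10.8, 6.21 and 9.63 FPKM in RAV1 over-expression and 2.98, 2.40 and 3.18 FPKM in bes1-D (log2 difference 1.33, SE 0.23, adjusted p = 0.00185). COR47, a dehydrin, was lower (log2 difference -0.60, SE 0.09, adjusted p = 0.000848). KIN2 and the transcription factor CBF3 were the members lost (adjusted p = 0.0701 and 0.0651 under trimmed-mean scaling). CBF3 had reached the level needed for testing only through RAV1 over-expression and so had to differ. One heat shock gene of 7, HSP90.1, was called higher (0.79, adjusted p = 0.036), a call lost under trimmed-mean scaling (adjusted p = 0.106), where HSP18.2 was lower, and without bes1-D replicate 3. The heat shock count was 0 without En2 wild type replicate 2, RAV1 over-expression replicates 1 or 2 or bes1-D replicate 1. It was 4 when RAV1 over-expression replicate 3 was left out and 2 when bes1-D replicate 2 was.

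Leaf senescence genes were higher in 5 of 11 cases and lower in 1 (4 and 1 under trimmed-mean scaling). PPH and NYE1, which act in chlorophyll breakdown, were higher by 0.75 and 0.95 (adjusted p = 0.00443 and 0.0062), and PPH measured 56.0, 50.1 and 74.3 FPKM in RAV1 over-expression against 31.7, 40.7 and 32.8 FPKM in bes1-D. SAG13, a senescence marker of low level, was higher by 1.85 (adjusted p = 0.00546) at 3.01, 1.84 and 8.48 FPKM. It reached the level needed for testing only through RAV1 over-expression and so had to differ. SAG12, the usual marker of late senescence, was below the level needed for testing. SWEET15, a sugar exporter, went the other way, at 2.82, 2.35 and 3.38 FPKM against 10.9, 19.7 and 11.1 FPKM (log2 difference -1.91, SE 0.26, adjusted p = 0.000526). Its relative SWEET10 was also lower, at 6.97, 11.2 and 3.19 FPKM against 68.6, 108 and 66.8 FPKM (log2 difference -3.43, SE 0.36, adjusted p = 0.000243). Both exporters were highest in bes1-D and above wild type there (1.56 and 1.41, adjusted p = 0.00691 and 0.0463).

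Of 5 phosphate starvation genes the phosphatase PAP17 was higher under both scalings, at 69.3, 50.8 and 64.3 FPKM in RAV1 over-expression and 16.4, 20.3 and 27.6 FPKM in bes1-D (log2 difference 1.5, SE 0.20, adjusted p = 0.00063). The transporter PHT1;4 was called higher as deposited but not under trimmed-mean scaling (adjusted p = 0.114) or without RAV1 over-expression replicates 1 or 2 or bes1-D replicate 2. The lipid synthesis genes SQD2 and MGD3 were called lower (-0.37 and -1.06, adjusted p = 0.0291 and 0.0415). Neither remained without RAV1 over-expression replicates 1 or 3 or bes1-D replicate 1, and 1 of both did without En2 wild type replicates 2 or 3 or bes1-D replicates 2 or 3.

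The counts of flowering and clock genes stand beside 28% of all loci called higher and 10.6% called lower. CIB1, a partner of the blue light receptor CRY2 that promotes flowering, measured 0, 3.21 and 0 FPKM in RAV1 over-expression and 16.1, 21.1 and 23.1 FPKM in bes1-D (log2 difference -3.69, SE 0.49, adjusted p = 0.000747). It was thus listed at 0 in 2 of 3 over-expression libraries, beside a wild-type mean of 16.8 FPKM. SVP, a repressor of flowering, measured 27.0, 27.6 and 27.6 FPKM against 41.4, 49.9 and 54.3 FPKM (log2 difference -0.79, SE 0.10, adjusted p = 0.000456), with bes1-D as the line away from wild type (0.66, adjusted p = 0.00572). These were the 2 called of 5 tested flowering genes, and SOC1 joined them as lower under trimmed-mean scaling. Of 11 clock genes 3 were higher and 1 lower (2 and 3 under trimmed-mean scaling, with PRR9 and GI added, and 3 lower without bes1-D replicate 3). ELF4 and TOC1, of the evening, were higher by 0.99 and 0.60 (adjusted p = 0.00349 and 0.00864), and PRR7 was lower (log2 difference -0.41, SE 0.08, adjusted p = 0.00321). RVE8 was called higher as deposited but not under trimmed-mean scaling (adjusted p = 0.0571) or without RAV1 over-expression replicate 1 (adjusted p = 0.0518).

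Of 8 genes that respond early to touch and wounding 1 was called higher and 2 lower. ERF104 was lower (log2 difference -0.93, SE 0.23, adjusted p = 0.0109), at 17.8, 14.1 and 14.7 FPKM in RAV1 over-expression, 32.8, 29.6 and 29.1 FPKM in bes1-D and 28.7, 61.4 and 51.2 FPKM in wild type. CAF1a and JAZ8, the other called members, had adjusted p = 0.0462 and 0.0419. JAZ8 lost its call under trimmed-mean scaling and without any 1 library other than RAV1 over-expression replicate 3 or bes1-D replicate 2, and CAF1a when any 1 library was left out other than the first or second wild type or the second RAV1 over-expression library.

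**Figure D5:**
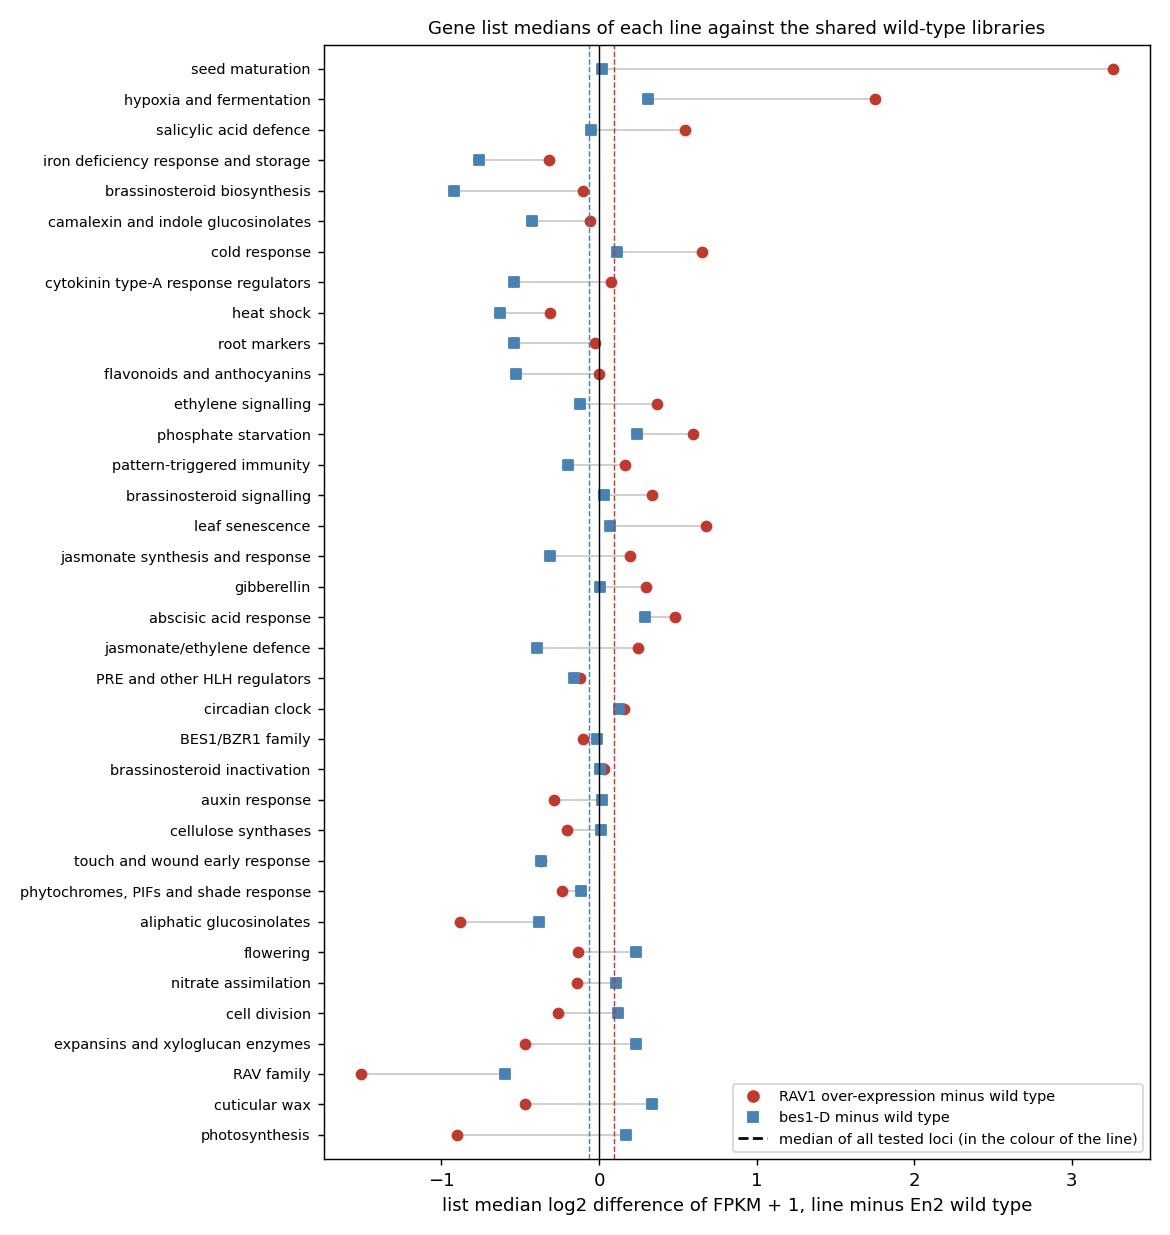
Median log2 difference (FPKM + 1, x axis) of the tested members of each gene list (y axis) in RAV1 over-expression (circles) and bes1-D (squares) against the same 3 wild-type libraries, with dashed lines at the medians of all loci (0.0928 and -0.0616). Brassinosteroid synthesis (-0.10 and -0.92) was displaced in bes1-D, hypoxia (1.75 and 0.31) and photosynthesis (-0.90 and 0.17) in RAV1 over-expression.

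Where a locus was called, its lines stood apart and 1 line mean reached 5 FPKM, the greatest log2 difference was that of AT1G68250. It measured 219, 68.9 and 871 FPKM in RAV1 over-expression and 0.680, 0 and 0.360 FPKM in bes1-D (log2 difference 7.49, SE 0.74, adjusted p = 0.000231), and was listed at 0 in all wild-type libraries. It is 1 of 4 loci among the 12 with the greatest higher differences, together with PAP85, AT1G03106 and SESA5, that reached the level needed for testing only through RAV1 over-expression and so had to differ, and their tests support nothing by themselves. CRC, PDF1.1, PAP85 and RAV1 followed together with AT1G03106, AT2G30766 and AT5G39520 (5.09, 4.64 and 4.14). UPI, a proteinase inhibitor, measured 115, 62.6 and 124 FPKM against 4.24, 3.72 and 5.17 FPKM (log2 difference 4.18, SE 0.30, adjusted p = 3.63e-05). LBD40, a transcription factor of the LOB family, measured 81.8, 42.5 and 97.7 FPKM against 2.40, 3.68 and 4.90 FPKM (log2 difference 3.96, SE 0.32, adjusted p = 6.15e-05). SESA5, a seed albumin, closed the 12 (3.95, adjusted p = 0.00855) and lost its call with a pseudocount of 5 (adjusted p = 0.0508). Of the 8 loci that did not depend on RAV1 over-expression for being tested, 5 (CRC, PDF1.1, RAV1, AT5G39520 and LBD40) passed the test against wild type in RAV1 over-expression and not in bes1-D, and AT2G30766, UPI and ELIP2 did not follow that pattern.

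AT2G30766 was the exception in the opposite sense. It measured 69.3, 61.5 and 41.5 FPKM in RAV1 over-expression, 1.13, 0.920 and 1.91 FPKM in bes1-D and 55.4, 44.9 and 37.99 FPKM in wild type (log2 difference 4.64, SE 0.22, adjusted p = 3.26e-06), so bes1-D alone was low. The 2 loci with the smallest p of the comparison behaved alike. AT1G57720 measured 276, 278 and 294 FPKM in RAV1 over-expression, 29.4, 30.4 and 35.9 FPKM in bes1-D and 269, 272 and 266 FPKM in wild type (log2 difference 3.11, SE 0.09, adjusted p = 8.58e-08). AT3G20790 measured 40.9, 35.5 and 35.9, 5.30, 4.81 and 5.01 and 38.5, 35.1 and 38.6 FPKM in the same order of groups (log2 difference 2.67, SE 0.09, adjusted p = 3.03e-07). The peroxidase gene PRX71 (AT5G64120) and AT5G64100 were also among the 6 higher loci with the smallest p, at 364, 369 and 388 FPKM against 47.6, 61.2 and 50.5 FPKM for PRX71 (log2 difference 2.80, SE 0.14, adjusted p = 3.16e-06). GAT1_2.1, a glutamine amidotransferase gene, measured 67.0, 54.9 and 52.8 FPKM against 3.87, 6.30 and 6.28 FPKM (log2 difference 3.21, SE 0.16, adjusted p = 3.3e-06), and there RAV1 over-expression alone was high, with a wild-type mean of 5.95 FPKM.

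On the lower side 2 loci that the TAIR10.1 gene table lists as pseudogenes stood first. AT1G36400 was listed at 0 in all 3 RAV1 over-expression libraries and measured 13.8, 17.42 and 19.4 FPKM in bes1-D, with 0, 0 and 0.290 FPKM in wild type (adjusted p = 1.33e-06). AT2G12040 measured 0.310, 0 and 0.490 FPKM in RAV1 over-expression and 18.6, 20.9 and 19.8 FPKM in bes1-D (log2 difference -4.05, SE 0.17, adjusted p = 1.33e-06), and 0.130, 0 and 0 FPKM in wild type. Both were near 0 outside bes1-D. They reached the level needed for testing only through bes1-D and so had to differ, and their small p supports nothing by itself. The next were CIB1 and CYP81D11, a cytochrome P450 induced by foreign chemicals, at 1.14, 0.730 and 1.95 FPKM against 17.5, 46.2 and 16.5 FPKM (log2 difference -3.48, SE 0.52, adjusted p = 0.00139). AT1G73600 measured 33.6, 84.5 and 7.15 FPKM against 314, 377 and 272 FPKM (log2 difference -3.46, SE 0.73, adjusted p = 0.00924). SQP1, a squalene epoxidase gene, was lower by -3.20 on the log2 scale (adjusted p = 0.000215), and AT1G65490, AT1G73120 and AT5G38100 by -3.31, -3.24 and -3.12. AT5G44400 and AT3G02910, chosen for their small p, were lower in every RAV1 over-expression library than in any bes1-D library (-1.86 and -1.62, adjusted p = 5.81e-06 and 7.72e-06), the former with bes1-D above wild type and the latter with bes1-D level with it.

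The promoters of called loci were searched for the motifs shown above for RAV1 and BES1. The brassinosteroid response element (CGTGTG or CGTGCG) occurred in 10.8% of the 5471 windows of higher loci, 7.43% of the 2060 windows of lower loci and 8.65% of all. Under trimmed-mean scaling the shares were 13.5% for higher and 7.16% for lower loci. The G-box CACGTG, an E-box form, occurred in 10.6%, 8.06% and 8.8%. CANNTG as a whole was found in 61.8%, 66.3% and 62.6%, in the same order. CAACA was found in 50.1%, 56.4% and 53%, and CACCTG in 2.94%, 2.91% and 3.18%. These are shares of windows with at least 1 match on either strand, and no test was made of their differences.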

How the data were processed

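Per the labels, libraries were made with a TruSeq kit and sequenced in pairs on a HiSeq2500. FPKM values were deposited by the authors in 1 table. FastQC 0.10.1, TopHat2, Cufflinks 2.1.1 and TAIR10 are named in the submitters' processing notes, and any further scaling is not stated. Fragment counts were not used here, so depth is unknown and no counting interval is given. Column sums ran from 890880 to 971271 FPKM, and 22241 to 22551 loci were above 0 per library. The 1 blank value lay in a locus that was not tested.

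Values were analysed as log2(FPKM + 1) in limma 3.58.1 (R 4.3.3; trend and robust options, 6 residual degrees of freedom, two-sided tests), which was tested on simulated data. A log2 difference on this scale understates that of low genes. SE is the moderated standard error. Gene names came from the TAIR10.1 table (25135 of 25199 loci matched). Python 3.11.15, numpy 2.4.6, pandas 2.3.3 and matplotlib 3.10.9 did the rest.

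Members, 36 gene lists (418 genes, 376 tested) and tests were chosen with earlier results of these data known. The rule for named genes took both families, up to 4 called members per list with the smallest p, the 12 greatest differences per direction among called, non-overlapping loci of at least 5 FPKM, and 6 per direction with the smallest adjusted p. Other named genes complete small counts or are marked as chosen after their values were seen. Alternatives were pseudocounts of 0.1 and 5, no filter, a filter of 5 FPKM, trimmed-mean and quantile scaling, the 6 libraries alone, no trend or robust options, a replicate block and each library left out.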

Additional observations from a re-analysis of the deposited data

How the results depend on the processing

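RAV1 and BES1 kept their direction and call under all 18 alternatives run. The 5520 higher and 2084 lower loci became 5454 and 2062 with a pseudocount of 0.1, 5534 and 2065 with 5, 5453 and 2082 without a filter, 4881 and 1803 with a filter of 5 FPKM, 4377 and 1802 from the 6 libraries alone and 5368 and 2049 without trend or robust options. Scaling moved the higher count most, to 2551 (lower 3003) with trimmed means and 2714 (lower 2953) with quantiles, as both take away most of the 0.191 shift in the median of all loci. With 1 library left out the higher count ran from 3534 (without RAV1 over-expression replicate 1) to 5289, the lower from 1627 to 2183, the RAV1 difference from 4.20 to 4.68 and the BES1 difference from -1.42 to -1.16. Of the loci, 3050 higher and 1407 lower were called in all 9 such fits.

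Between the lines, deviations of same-numbered libraries from their group means correlated at -0.05, -0.0759 and -0.0676. With 3 libraries a group, each set centred on its own mean, such values cannot decide whether same numbers mark pairs. No library of either line correlated best with its own number in the other. With wild type the same-numbered values were mixed. They were -0.0178, 0.117 and 0.0389 for RAV1 over-expression replicates 1 to 3 and 0.151, -0.0319 and 0.0948 for bes1-D replicates 1 to 3. Whether same-numbered libraries shared a batch was not tested. A replicate block gave 5146 higher and 2062 lower loci, with RAV1 at 4.44 (adjusted p = 0.000176) and BES1 at -1.29 (0.000636). Of the named genes only EDF3, not called, changed sign under any alternative, from -0.0576 to 0.137 without bes1-D replicate 3 (lowest -0.273, without bes1-D replicate 1). Besides scaling and single libraries, other settings ended the calls of PR4, CBF3, HSP90.1, SQD2, MGD3, JAZ8, CAF1a, SESA5 and BZR1 (adjusted p from 0.0500 to 0.0869), and the cause was not tested. With FPKM alone, low genes are limited by a depth that is unknown, and with 3 libraries a line an exact test cannot go below 0.1.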
